A study of Mus musculus with 4 samples.

Results

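Olfactory receptors are the odorant-detecting G protein-coupled receptors of the nose, and in the mouse they form the largest gene family. The genes considered here are those whose symbol is Olfr followed by a number and whose deposited value was at least 1 FPKM (fragments per kilobase of transcript) in any of 4 RNA-seq libraries. By that rule 512 of the 1116 Olfr symbols listed were detected, which is 45.9%, against 75.3% of all 23281 genes listed. Because the rule reads the expression values, levels and counts of these genes are given as a description, with no test.

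The cells were from mice. The first group is 1 library of respiratory basal cells (RBCs), the stem cells of the respiratory epithelium. They were microdissected and sorted as TdTomato+ cells from KRT5-CreER;Ai9-fl(stop)TdTomato mice, in which a keratin 5 promoter drives an inducible recombinase that switches on a lasting red reporter, so that descendants of labelled cells also carry it. The second group is 3 libraries of horizontal basal cells (HBCs), the reserve stem cells of the olfactory epithelium, grown from wildtype mice to passage 3 under control conditions, and the labels give no sort for them. The labels give no ages, induction times or number of animals, and do not say whether the 3 cultures came from separate animals. The RBC library has no replicate. The groups differ at once in tissue, culture, genotype and the sort that the labels give. These differences cannot be told apart, and a gene called higher or lower in RBCs is so in this 1 library. Every level below is a deposited FPKM value unless another scale is named. Where a mean of the 3 HBC libraries is followed by ±, the value after it is the SD (n = 3).

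Each mature olfactory sensory neuron expresses, in general, a single receptor gene from a single allele, and the receptor signals through the olfactory G protein, adenylyl cyclase 3 and a cyclic nucleotide-gated channel. A receptor gene is therefore read out in a small share of the neurons, so that receptors are spread thinly in bulk RNA. The family falls into class I, related to receptors of fish and clustered on 1 chromosome, and the larger class II. Receptor genes have a coding region held in a single exon, and lie in clusters that arose by duplication.

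Short stretches of the coding sequence are shown for some of these receptors, all of which encode the same motif. The lines below hold the codons around the aspartate-arginine-tyrosine (DRY) motif at the inner end of a transmembrane segment, with the 9 bases of that motif in capitals. They are read from GENCODE M21 transcripts (GRCm38). They are shown for leading genes of the RBC library (Olfr533, Olfr536, Olfr1509, Olfr1301 and Olfr461). Olfr1314, Olfr1318, Olfr1317 and Olfr1309, each detected in an HBC library, are added. Olfr461, Olfr1318 and Olfr1317 were detected in both groups. The genes were picked among those that encode the motif, and close relatives are among them, so the lines do not measure likeness over the family.
Olfr533: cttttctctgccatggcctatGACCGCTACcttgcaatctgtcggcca
Olfr536: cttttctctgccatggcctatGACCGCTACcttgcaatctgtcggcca
Olfr1509: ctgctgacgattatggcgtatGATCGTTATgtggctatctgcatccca
Olfr1301: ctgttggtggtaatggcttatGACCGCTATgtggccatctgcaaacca
Olfr461: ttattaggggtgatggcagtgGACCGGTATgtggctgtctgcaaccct
Olfr1314: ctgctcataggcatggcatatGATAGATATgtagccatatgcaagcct
Olfr1318: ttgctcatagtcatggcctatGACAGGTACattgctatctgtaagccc
Olfr1317: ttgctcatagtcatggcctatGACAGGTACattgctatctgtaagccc
Olfr1309: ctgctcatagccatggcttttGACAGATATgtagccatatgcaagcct
Olfr533 and Olfr536 had the same letters throughout this stretch, as did Olfr1318 and Olfr1317. Of 500 detected genes with an open reading frame in a protein-coding GENCODE transcript, 402 (80.4%) encoded this exact motif.

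Near copies limit how reads can be assigned. Of 509 detected genes with a GENCODE sequence, 141 (27.7%) had another Olfr sequence at 95% identity or more over at least 80% of their length, against 156 of 599 undetected Olfr genes (26%). Among the detected genes 20 had a copy at 98% or more. The closest pair with both genes detected was Olfr603 and Olfr596, at 99.5% identity, with 6.69 and 5.35 FPKM in the RBC library. The labels do not say how the counting split reads between such copies.

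The detected receptors were almost all in the RBC library. There, 498 of 1116 Olfr genes (44.6%) were at 1 FPKM or more, against 20, 19 and 14 in HBC libraries 1, 2 and 3. Over all 23281 genes listed, 72.3% reached 1 FPKM in the RBC library, and 59.1, 59.7 and 59.7% did in the HBC libraries, in the same order. In any HBC library 32 Olfr genes (2.87%) were detected, against 63.2% of all genes. Of the 498 genes detected in the RBC library, 475 had a value of 0 in every HBC library. Of the 32 genes detected in an HBC library, 18 were also detected in the RBC library, and the other 14 were all at 0 there. The RBC value was above all 3 HBC values for 495 of the 512 genes, below all 3 for 4 genes and between or tied for 13. Over all genes listed, 47.3% lay above and 20.6% below in this sense. The rule for choosing the genes reads the same values, so no excess is drawn from these counts.

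**Figure D1:**
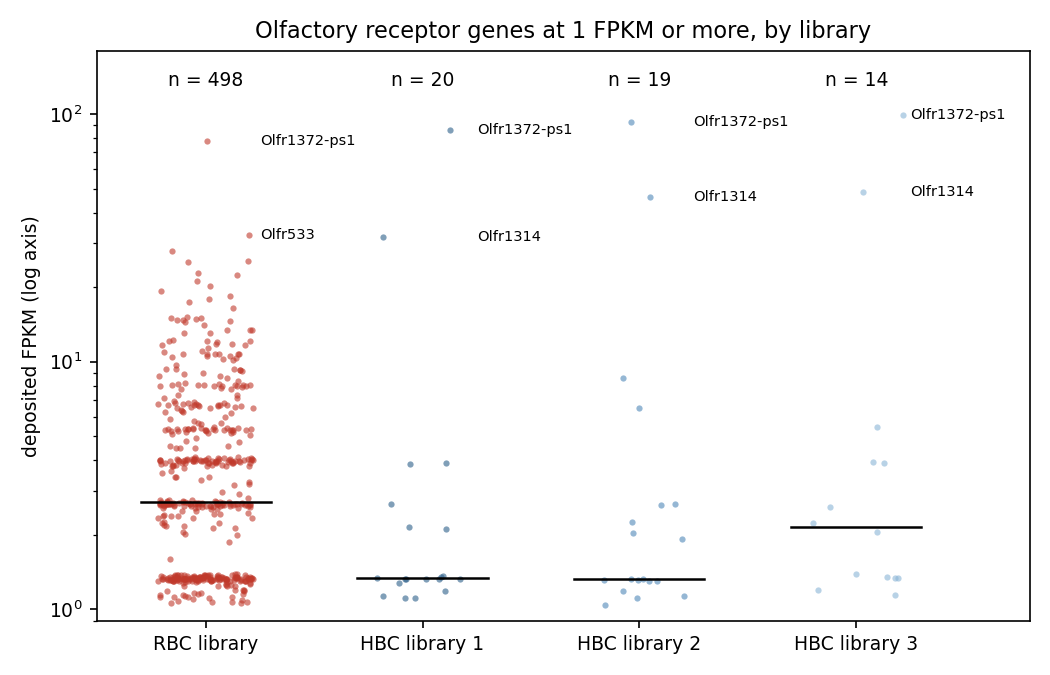
Deposited FPKM on a log axis of every olfactory receptor gene at 1 FPKM or more, with the RBC library on the left and the 3 HBC libraries to its right. Points are genes and black lines are medians. The RBC library holds 498 genes and the HBC libraries 20, 19 and 14, and Olfr1372-ps1 is the highest point in each library.

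The values fell into steps that correspond to whole sequenced fragments. In 895 Olfr genes whose RefSeq span is at most 1100 bases, a single fragment in the RBC library was worth 0.980 divided by the length in kilobases after 206 bases were taken off it. In HBC libraries 1 and 2 a fragment was worth 0.992 and 0.988 times as much, and in HBC library 3 nearly the same. With these steps 377 of 389 RBC values above 0 (96.9%) came within 0.1 of a whole number of fragments, as did all 15, 10 and 10 values of the HBC libraries.

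Most detected receptors thus rest on few fragments. In the RBC library 122 of the 377 genes (32.4%) had 1 fragment, 74 had 2 and 181 (48.0%) had 3 or more. Only 90 had 5 or more and 20 had 10 or more, and the 377 genes held 1303 fragments together. In HBC libraries 1, 2 and 3 single fragments made up 11 of 15, 5 of 10 and 6 of 10 values. The minimum of 1 FPKM is therefore close to the worth of 1 fragment in a gene of usual length. A gene at 1 fragment and a gene listed at 0 cannot be told apart at this depth. At the edge of the rule, the lowest detected genes were Olfr715 and Olfr314 (both at 1.06 in the RBC library) and Olfr1037 (1.07), and the highest undetected ones were Olfr613 (0.994), Olfr1097 (0.964) and Olfr129 (0.950).

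**Figure D2:**
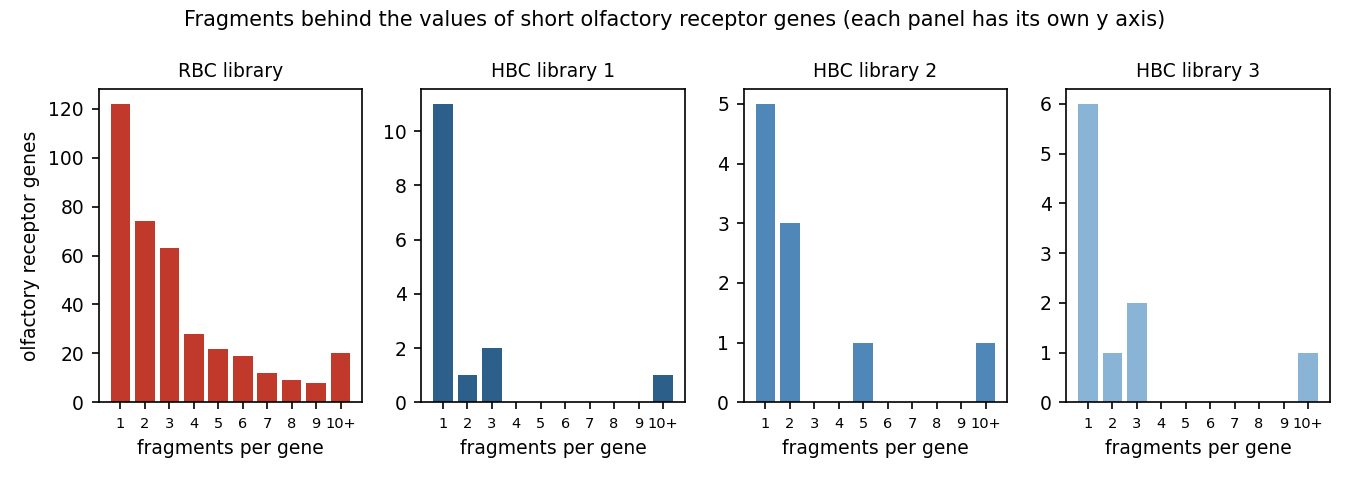
Number of olfactory receptor genes (y axis, own scale in each panel) by the whole number of fragments behind their value (x axis, 10 or more pooled), for the RBC library and HBC libraries 1, 2 and 3. In the RBC panel 122 genes rest on 1 fragment and 20 on 10 or more.

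Summed over all Olfr genes, the RBC library held 2311 FPKM, 0.0234% of that library's total. The sums in HBC libraries 1, 2 and 3 were 151, 179 and 177, which is 0.00181, 0.00174 and 0.00163% of their totals. A pseudogene, Olfr1372-ps1, made up 3.37% of the RBC sum and 57.0, 51.8 and 55.7% of the HBC sums. Without it and Olfr1314 the sums were 2233 in the RBC library and 33.2, 40.2 and 30.1 in the HBC libraries.

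Among detected genes the RBC values had a median of 2.71 FPKM, with quartiles of 1.35 and 5.39 and a maximum of 77.8. Only 52 Olfr genes reached 10 FPKM there and 9 reached 20. No gene dominated. After Olfr1372-ps1 the highest was Olfr533 at 32.4 FPKM, or 25 fragments, followed by Olfr1509 at 28.0 (23 fragments) and Olfr1301 at 25.4 (19 fragments). These 3 genes were listed at 0 in each HBC library. Olfr461 was at 25.3 in the RBC library (19 fragments), against 1.32, 1.32 and 0 in HBC libraries 1, 2 and 3. Its single fragments in 2 cultures lie far under the RBC value. The next were Olfr138 (22.7), Olfr1046 (22.4), Olfr536 (21.2), Olfr957 (20.1), Olfr531 (19.4), Olfr6 (18.4) and Olfr612 (17.9). Of these 7, only Olfr536 was above 0 in a culture, at 0.268, 0.268 and 0.269. Olfr612 alone among the 12 highest is of class I.

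The MOR classification groups mouse receptors by sequence, and RefSeq carries it as synonyms. Olfr533 and Olfr536 belong to MOR family 252, whose other gene, Olfr530, was at 10.9 FPKM in the RBC library. The closest copy of Olfr533 is Olfr530, at 95.2% identity, so that part of their reads may be shared. Olfr1509 belongs to MOR family 244, with Olfr1507 at 6.48 and Olfr1508 at 3.54 in the RBC library, and none of these genes was above 0 in a culture. All 3 overlap the T cell receptor alpha locus in RefSeq, and the strand setting of the counting is not given. In all, 20 detected genes overlap a gene outside the family, and 2 of them, Olfr91 and Olfr330, were detected in an HBC library, each in a single one.

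Some well-studied receptors were among the detected genes; they were picked for their use in other work after their values had been seen. Olfr160 (M72), which responds to acetophenone, was at 14.8 in the RBC library (11 fragments). Olfr15 was at 10.7, Olfr16 (MOR23), which responds to lyral, at 6.97, and Olfr17 (P2), used in studies of axon targeting, at 3.96. Olfr73 (mOR-EG), a eugenol receptor, was at 2.66 and Olfr2 (I7), an octanal receptor, at 1.88. All 6 were listed at 0 in the 3 HBC libraries. Olfr151 (M71) was listed at 0 in all 4 libraries, and its near copy Olfr160, which has 96.7% identity to it, was not. Olfr78, a receptor also expressed in kidney and carotid body, was at 9.73 in the RBC library, against 0.297, 0 and 0.596 in HBC libraries 1, 2 and 3. Olfr558 was at 2.16 in the RBC library and 0 in the cultures.

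The sequence before the coding region is shown for the 3 highest genes of the RBC library that have an entry in RefSeq's window table (GRCm38.p6), and for Olfr1314, the highest protein-coding receptor gene of the HBC libraries, chosen after its values were seen. Each run covers 250 bases before and 50 after the annotated start, 5′ to 3′ along the gene. Capitals mark an ATG where the annotated start coincides with it, and the homeodomain motif TAATTA.
Olfr533, chr7:140465953-140466252, plus strand: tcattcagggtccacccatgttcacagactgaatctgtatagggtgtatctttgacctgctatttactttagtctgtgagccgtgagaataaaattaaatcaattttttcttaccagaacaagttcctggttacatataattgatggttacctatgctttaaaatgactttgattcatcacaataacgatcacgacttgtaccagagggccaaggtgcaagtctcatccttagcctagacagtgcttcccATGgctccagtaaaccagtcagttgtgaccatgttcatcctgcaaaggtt
Olfr1509, chr14:52450143-52450442, plus strand: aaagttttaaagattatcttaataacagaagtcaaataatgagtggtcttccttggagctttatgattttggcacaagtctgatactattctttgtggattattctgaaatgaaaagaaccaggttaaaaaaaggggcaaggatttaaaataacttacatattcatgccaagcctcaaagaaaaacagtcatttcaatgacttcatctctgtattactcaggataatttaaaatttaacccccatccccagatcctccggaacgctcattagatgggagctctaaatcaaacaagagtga
Olfr1301, chr2:111754001-111754300, plus strand: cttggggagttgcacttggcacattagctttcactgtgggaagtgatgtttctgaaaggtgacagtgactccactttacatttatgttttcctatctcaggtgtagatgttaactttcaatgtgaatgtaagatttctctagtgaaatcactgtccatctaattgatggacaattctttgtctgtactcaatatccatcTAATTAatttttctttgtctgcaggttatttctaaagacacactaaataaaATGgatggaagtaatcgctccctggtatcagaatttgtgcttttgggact
Olfr1314, chr2:112092650-112092949, minus strand: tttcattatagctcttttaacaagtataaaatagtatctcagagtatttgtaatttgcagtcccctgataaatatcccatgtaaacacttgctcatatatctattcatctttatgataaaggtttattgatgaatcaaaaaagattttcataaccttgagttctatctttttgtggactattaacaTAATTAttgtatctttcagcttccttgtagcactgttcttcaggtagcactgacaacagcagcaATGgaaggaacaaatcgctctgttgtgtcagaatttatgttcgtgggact
In Olfr1301 TAATTA begins 51 bases before the annotated start, and in Olfr1314 it begins 64 bases before it. Olfr533 and Olfr1509 have none in these windows. No window of these 4 holds the Ebf motif, TCCC and GGGA with any 2 bases between them.

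Both motifs read the same on either strand and do not overlap each other. Of 419 windows of detected genes, 293 (69.9%) have an ATG exactly at the annotated start, so most are sequence just before the coding region and not a mapped promoter. TAATTA was in 72 of the 419 windows (17.2%), in 104 of 529 windows of undetected Olfr genes (19.7%) and in 5.29% of all 32851 windows. The Ebf motif was in 2 windows of detected genes (0.477%), in 3 of undetected Olfr genes (0.567%) and in 0.904% of all windows. The GC content of these sets was 36.4, 35.9 and 53.8%. A match is a match of letters only.

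Class I receptors were detected more often than class II receptors in the RBC library, as a description. The 121 class I genes listed are all on chromosome 7, and 76 of them (62.8%) were detected in that library, with a median of 3.82 FPKM. Of 967 class II genes 406 (42%) were, with a median of 2.71. In any HBC library 3 class I genes (2.48%) and 28 class II genes (2.90%) were detected. The class was assigned from MOR names, and genes with no usable MOR name were left out.

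By chromosome, counted where at least 20 Olfr genes are listed, the detected share in the RBC library ran from 20% (5 of 25 on chromosome 4) to 57.1% (16 of 28 on chromosome 1 and 16 of 28 on chromosome 6). Chromosome 2 gave 119 of 288 (41.3%) and chromosome 7 gave 131 of 236 (55.5%). Among MOR families with at least 8 genes listed, MOR253 had all 10 detected in the RBC library and family 32, of class I, had 8 of 10. Family 177 had 1 of 13 and family 262 had 1 of 11. The longest run of Olfr genes with no other protein-coding gene between them, on chromosome 2, held 122 listed genes, of which 53 were detected in the RBC library and 0 in any HBC library.

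In the cultures detection was mostly sporadic. Of the 32 genes detected in any HBC library, 18 were detected in 1 of the 3 libraries, 7 in 2 and 7 in all 3. The 7 were Olfr1372-ps1, Olfr1314, Olfr1318, Olfr31, Olfr1383, Olfr1442 and Olfr920, and 6 of them were also detected in the RBC library. Olfr1314 was the exception.

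Olfr1314 was the protein-coding receptor gene with the highest values in the cultures. It was listed at 0 in the RBC library, against 31.8, 46.2 and 48.4 FPKM in HBC libraries 1, 2 and 3, a mean of 42.1 ± 8.99 (SD, n = 3). These values stand for 24, 35 and 36 fragments. All 3 cultures were high and the groups did not overlap. The closest Olfr sequence, Olfr1306, has 82.7% identity to it and was listed at 0 in all 4 libraries.

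Olfr1372-ps1, annotated as a transcribed pseudogene on chromosome 11, was high in all 4 libraries. It was at 77.8 FPKM in the RBC library, against 86.3, 92.9 and 98.7 in HBC libraries 1, 2 and 3 (92.6 ± 6.24, SD, n = 3). The RBC value lay below each culture. Divided by the depth factors, the gene was at 73.4 in the RBC library and averaged 94.5 in the HBC libraries. Olfr1383, whose sequence is 97.3% identical to it, was at 10.7 in the RBC library and 2.66, 2.65 and 1.35 in the cultures, so that shared reads between these genes cannot be told apart.

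Several genes of the culture set are neighbours of Olfr1314 in the same family. Olfr1318 was at 1.08 in the RBC library, against 2.15, 8.59 and 5.44 in HBC libraries 1, 2 and 3. Olfr1309 was at 0, against 3.85, 0 and 3.90, or 3 fragments in each of 2 cultures. Olfr1317 was at 1.32, against 0, 1.30 and 0, and Olfr1305 was at 0, against 1.33, 0 and 0. Olfr1317 and Olfr1318 have 97.9% identity, which leaves their split uncertain.

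These 5 genes belong to MOR245 and lie in a run of 37 Olfr genes on chromosome 2. In that run 2 of the 21 MOR245 genes were detected in the RBC library and 5 in a culture. Of the other 16 genes of the run, 9 were detected in the RBC library, Olfr1301 among them, and 0 in a culture. The run was singled out after its values had been seen, and this division was not tested. The nearest measured protein-coding genes on its sides are Muc15, at 17.7 in the RBC library and 28.0 on average in the HBC libraries, and Lpcat4, at 188 and 513.

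The other genes detected in all 3 cultures had low values. Olfr31 was at 2.62 in the RBC library, against 3.90, 6.47 and 3.95 in HBC libraries 1, 2 and 3, that is, 2 fragments against 3, 5 and 3. Olfr1442 was at 4.56, against 1.13, 2.26 and 1.15, and Olfr920 was at 11.7, against 1.11, 1.11 and 2.24. In these last 2 genes the RBC value lay above each culture. Olfr856-ps1, a second pseudogene, was at 3.41 in the RBC library, against 0.680, 2.03 and 2.05 in the cultures. Olfr432 and Olfr99 followed by HBC mean. They were at 0 in the RBC library, and averaged 1.32 ± 1.32 and 0.916 ± 0.793 in the HBC libraries (SD, n = 3 each). Olfr461 and Olfr1513 tied for the last of the 12 highest HBC means, with 1.32, 1.32 and 0 in HBC libraries 1, 2 and 3 for both genes. Their RBC values differed, at 25.3 for Olfr461 and 0 for Olfr1513.

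**Figure D3:**
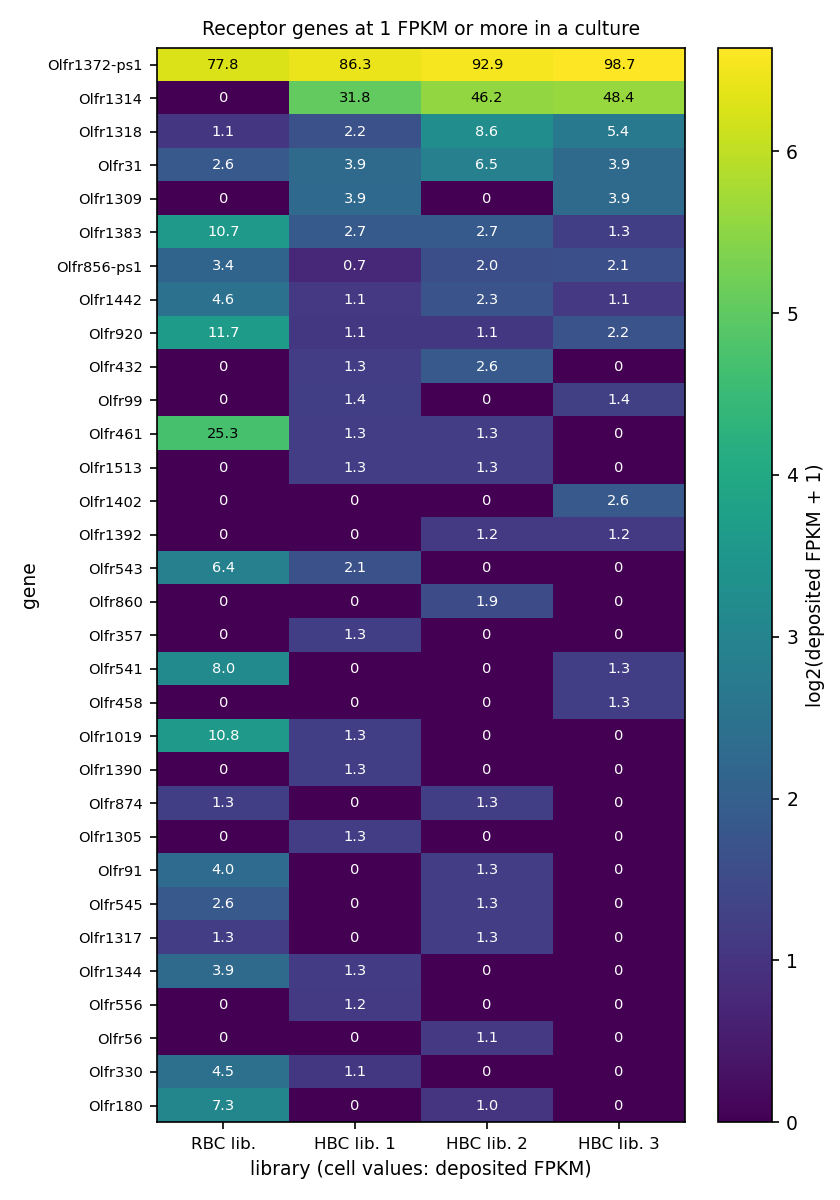
Deposited FPKM (printed in each cell; colour shows log2 of FPKM + 1) of the 32 olfactory receptor genes at 1 FPKM or more in at least 1 HBC library, with the RBC library in the left column. Only Olfr1372-ps1 and Olfr1314 are above 10 FPKM in a culture, and 14 of the 32 genes are listed at 0 in the RBC library.

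Other chemoreceptor families were set beside the Olfr genes by the same minimum of 1 FPKM. Trace amine-associated receptors (Taar), which are used by a small set of olfactory neurons, gave 12 of 15 genes in the RBC library (80%) and 0 in each HBC library. Taar2 was the highest of them at 14.4 FPKM and Taar9 was at 10.5. The vomeronasal families, which serve the accessory olfactory organ, gave 6 of 204 Vmn1r genes (2.94%) and 3 of 126 Vmn2r genes (2.38%) in the RBC library. In any HBC library 6 Vmn1r genes (2.94%) and 5 Vmn2r genes (3.97%) were detected.

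Bitter taste receptors (Tas2r) gave 9 of 35 genes in the RBC library and 1 in any HBC library, with Tas2r108 at 47.0 FPKM in the RBC library and 0 in the cultures. Of the Tas1r genes, 2 of 3 were detected in all 4 libraries. Formyl peptide receptors (Fpr) gave 0 of 6 genes in all libraries. Of 16 Ms4a genes, 7 were detected in the RBC library and 4 in any HBC library.

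**Figure D4:**
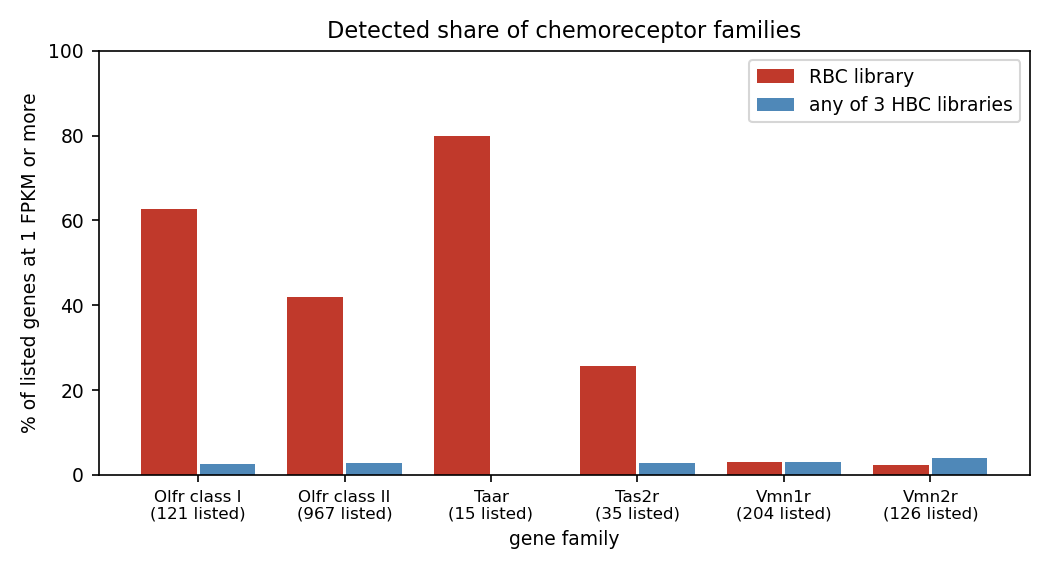
Percentage of listed genes at 1 FPKM or more (y axis) in the RBC library (left bar) and in any of the 3 HBC libraries (right bar), for class I and class II olfactory receptors and 4 other chemoreceptor families. The RBC bars stand at 62.8% for class I, 42% for class II and 80% for Taar, and at 2.94 and 2.38% for Vmn1r and Vmn2r.

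Genes that carry the odorant signal were higher in the RBC library in most cases. Of 18 tested transduction genes 13 were called higher in RBCs, 1 was called lower and 4 were not called (limma; a call needed a Benjamini-Hochberg adjusted p below 0.05 together with a 2-fold change). Over all 16440 genes tested, 34.2% (5621) were called higher and 12.8% (2105) lower. With library medians set equal these counts were 4408 and 3604, and with quantile normalization 3049 and 3586. Of the 18 transduction genes 12 were called higher with quantile normalization, against 19.1% of all tested genes. Without HBC library 2 the list gave 11 of 18, against 30.3% of all tested genes. The median log2 change of the list was 4.79, against 0.45 for all genes tested. The changes are on the log2 of depth-scaled FPKM + 1, which understates those of low genes. The spread comes from the 3 HBC libraries alone, and the single RBC library is assumed to vary like them. If the cultures were not separate, the p-values measure technical spread only. The list was chosen with earlier results of these data known.

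Omp, the marker of mature olfactory neurons, was at 1591 FPKM in the RBC library, against 52.4, 68.9 and 66.7 in HBC libraries 1, 2 and 3, a log2 change of 4.54 ± 0.05 (SE; limma adjusted p = 0.000113). Gnal, the G protein subunit that the receptors activate, was at 498, against 45.5, 51.5 and 65.1 (3.08 ± 0.16, limma adjusted p = 0.00220). Adcy3, the adenylyl cyclase of the cilia, was at 487, against 9.28, 15.1 and 14.7 (5.04 ± 0.21, limma adjusted p = 0.00155). Cnga2, the channel subunit opened by cyclic AMP, was at 262, against 0, 1.03 and 0.693 (7.39 ± 0.51, limma adjusted p = 0.00373). For each of these 4 genes the RBC value was above all 3 cultures. Stoml3, a protein of the neuron's cilia, was at 1023 and listed at 0 in the cultures, where every tested gene at 0 was called higher. Camk2b was called lower (16.4, against 38.2, 55.0 and 49.7), and Gnb1, a G protein beta subunit of most cells, was not called (3141, against 3285, 4337 and 4274). Cngb1 was listed at 0 in all 4 libraries, and Gucy2d was under the filter.

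Of 8 genes of receptor trafficking 4 were called higher in RBCs, 1 lower and 3 were not called. The shares of all tested genes were 34.2% higher and 12.8% lower. Rtp1 and Rtp2 encode receptor-transporting proteins, which help receptors reach the cell surface. They were at 216 and 162 FPKM in the RBC library and listed at 0 in all 3 cultures. All tested genes listed at 0 in the cultures were called higher. Hspa5, a chaperone of the endoplasmic reticulum, was called lower (5768, against 11024, 13408 and 13734; log2 change -1.25 ± 0.03, limma adjusted p = 0.000728). Canx, another chaperone of that compartment, was at 2024, against 2913, 3632 and 3624, and was not called (log2 change -0.85). With library medians set equal it was called lower, at -1.31.

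Of 24 genes linked to the choice of a receptor gene and its feedback, 11 were called higher, 2 lower and 11 were not called, with a median log2 change of 0.80. Beside this stand 34.2% called higher and 12.8% lower over all tested genes. Lhx2 and Ldb1 build the enhancer hubs of receptor genes and Ebf factors bind beside them. Lhx2 was at 86.7 FPKM in the RBC library, against 1.41, 0.469 and 0.472 in HBC libraries 1, 2 and 3 (log2 change 5.54 ± 0.51, limma adjusted p = 0.00630). Ebf1 was at 25.95, against 0.479, 0 and 0 (4.45 ± 0.37, limma adjusted p = 0.00527). Its call was lost under quantile normalization (log2 change 2.87, limma adjusted p = 0.0782). Ebf2 and Ebf3 were at 61.3 and 76.8 in the RBC library and averaged 0.184 ± 0.184 and 0.139 ± 0.241 in the cultures. Receptor expression engages a stress pathway that runs through Atf5. Atf5 was called lower in RBCs (1149, against 2398, 3148 and 3423; log2 change -1.48 ± 0.09, limma adjusted p = 0.00284), and so was the related stress factor Ddit3 (697, against 3208, 3601 and 3818; -2.45 ± 0.08, limma adjusted p = 0.000909).

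Of 15 tested genes of immature neurons 12 were called higher in RBCs, 1 lower and 2 were not called, and of 16 genes of mature neurons 14 were called higher, 1 lower and 1 was not called. Stmn2 and Stmn3, microtubule regulators of neurons, were at 97.0 and 111 FPKM in the RBC library. S100a5 and Pcp4l1, enriched in mature sensory neurons, were at 3335 and 1225. All 4 were listed at 0 in the HBC libraries. The immature list held 3 tested genes at 0 in all cultures and the mature list 3. Every tested gene of that kind was called higher, so their calls carry no weight as tests. For comparison, 34.2% of all tested genes were called higher. With quantile normalization 8 of 15 immature and 12 of 16 mature neuron genes were called higher, against 19.1% of all tested genes. Without HBC library 3 the mature list gave 10 of 16, against 30.1% of all tested genes. Dbn1 (59.1, against 126, 152 and 172) and Nrp1 (100.3, against 227, 297 and 299), a guidance receptor of many cell types, were called lower. Ncam1 (66.4, against 36.3, 48.1 and 50.7) and Plxna1 (545, against 340.5, 432 and 455) were not called, and their direction turned under another scaling (Ncam1 -0.73 with quantile normalization, Plxna1 -0.15 with library medians set equal).

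**Figure D5:**
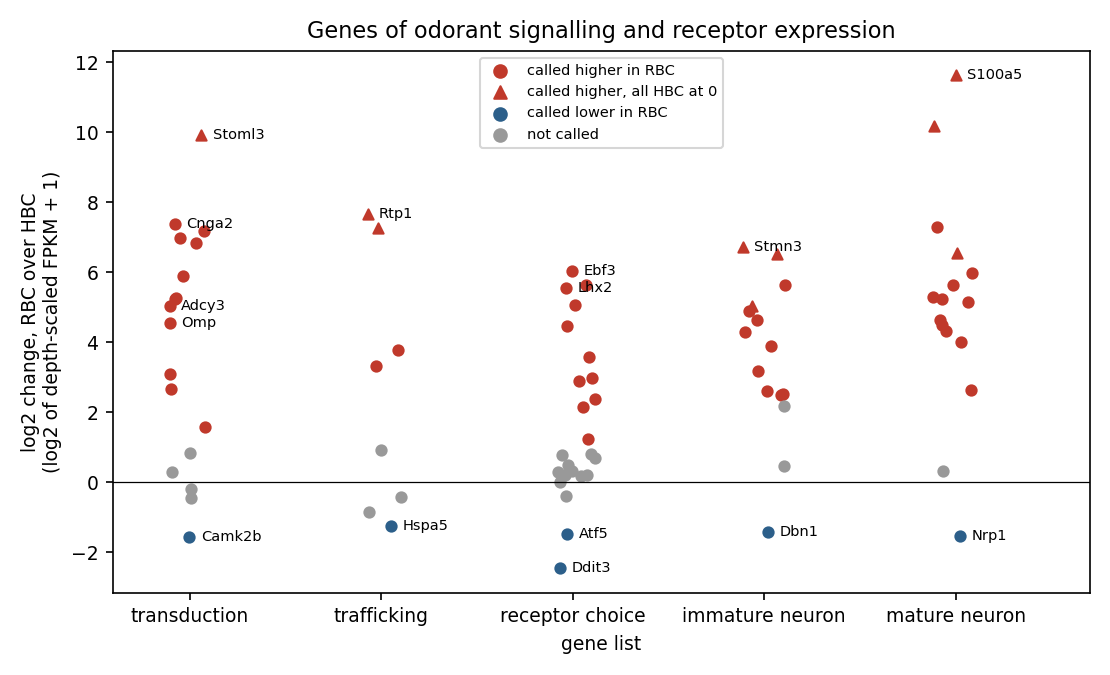
Log2 change, RBC over HBC, on the log2 of depth-scaled FPKM + 1 (y axis) of each tested gene in 5 lists (x axis). Red marks genes called higher in RBCs, blue lower and grey not called; triangles are genes listed at 0 in all 3 HBC libraries. In the transduction list 13 of 18 genes are red, and in the receptor choice list 11 of 24.

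Marker lists of several other cell types also differed between the groups. The share of all tested genes called higher was 34.2%, and 19.1% with quantile normalization. With a pseudocount of 0.1 that share was 30.4%, and with 10 it was 25.3%. Every tested gene at 0 in all cultures was called. Such genes were 3 sustentacular, 3 endothelial, 1 fibroblast, 2 ciliated and 3 leukocyte genes. Genes called higher in the RBC library (limma) were all 12 tested for sustentacular cells, 8 of 10 for endothelium, 9 of 10 for fibroblasts, 9 of 10 for ciliated cells and 8 of 11 for leukocytes, but 1 of 5 for erythrocytes. The counts moved with the settings: quantile normalization gave 4 of 9 for fibroblasts, 4 of 9 with 1 lower for endothelium and 5 of 10 for leukocytes, and a pseudocount of 0.1 or of 10 gave 5 of 10 for endothelium.

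The summed level of the 10 fibroblast genes was 8403 FPKM in the RBC library and 140 to 164 in the HBC libraries. That of the 10 endothelial genes was 109 and 2.34 to 4.597, and that of the 16 mature neuron genes 6444 and 581 to 788. In the RBC library Dcn held 7318 of the fibroblast sum and S100a5 held 3335 of the mature neuron sum. Without Dcn the fibroblast sum was 1085, against 91.1 to 126 in the HBC libraries. Without S100a5 the mature neuron sum was 3109, against 581 to 788. Plxna1 and Nrp1 held most of the HBC mature neuron sums. These genes were picked out after their values were seen. The sum of the 12 leukocyte genes was 16048 in the RBC library and 429 to 624 in the HBC libraries, and a single gene carried it. Lyz2, a lysozyme of myeloid cells, was at 15662 in the RBC library, against 20.6, 22.8 and 19.7 in HBC libraries 1, 2 and 3. Without it, a sum added after seeing the data, the leukocyte level was 386 in the RBC library and 408 to 604 in the HBC libraries. In the HBC libraries Cd68, given next, held nearly all of this remainder. Every other leukocyte gene of the list had an RBC value above each culture. Cd68, a lysosomal protein of macrophages, was called lower (69.7, against 403, 531 and 599 in HBC libraries 1, 2 and 3; log2 change -2.95, limma adjusted p = 0.00145). No gene of these 4 lists was at 0 in the RBC library, whereas 3 leukocyte, 1 fibroblast, 3 endothelial and 3 mature neuron genes were at 0 in all 3 cultures.

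Basal cell genes were present in both groups and went both ways. Among all tested genes 34.2% were called higher and 12.8% lower. Of 12 genes 6 were called higher in RBCs, 2 lower and 4 were not called. Trp63, a basal cell transcription factor, was at 4567 in the RBC library and averaged 538 ± 56.1 in the HBC libraries (SD, n = 3), and was called higher. Krt5, the keratin whose promoter drives the recombinase, was at 28087 and averaged 18380 ± 2469 (SD, n = 3), and was not called. The genes called lower were Krt17, at 8896 in the RBC library and 17815 ± 2906 on average in the cultures, and Itgb1, at 2619 and 5862 ± 668 (SD, n = 3 each). Lyz2, Cd68 and these basal genes were chosen after their values were seen. The part of neurons or other cells of the sorted sample in the receptor values was not tested. In bulk RNA fewer cells of a type and less RNA per cell cannot be told apart.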

How the data were processed

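RNA-seq of 1 library of sorted respiratory basal cells (RBCs) and 3 libraries of cultured horizontal basal cells (HBCs) was used. The authors deposited 1 table of FPKM values per gene symbol and library. STAR, Cufflinks 2.2.1, Cuffnorm and the build mm9 are named in the submitters' processing notes, without a role or order. The labels name no annotation, filter or strand setting. No division by depth was visible: 1 fragment was worth nearly the same in each library, while the sums of all values were 9877610 in the RBC library and 8377230, 10335100 and 10856000 in the HBC libraries. The number of fragments per library is unknown.

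The members and gene lists were chosen with earlier results of these data known. Olfr genes were counted at a minimum of 1 on deposited values. For tests, values were divided by depth factors from the 11134 genes at 10 or more in every library (RBC 1.06; HBC 0.843, 1.05 and 1.07), and limma 3.58.1 (R 4.3.3) was run on log2(value + 1) (trend, 2 residual degrees of freedom) for the 16440 genes with a mean of at least 1. Calls needed a Benjamini-Hochberg adjusted p under 0.05 and a 2-fold change. The 1256 tested genes listed at 0 in all HBC libraries were all called, and no p or fold is given for them. The fit was tested on simulated data, with every library drawn from HBC means of at least 1 and HBC spread. That test cannot speak to the spread of the RBC library or to genes at 0 in the cultures.

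Names, chromosomes and MOR families came from RefSeq (GRCm38.p6), to which 511 of the 512 genes matched. No RefSeq coordinates were set against the files, whose build differs. Copies were found with BLAST 2.17.0 between longest open reading frames of GENCODE M21, in place of the proteins planned. The text names the 12 genes highest in the RBC library, the 12 with the highest HBC mean (the last place tied), those detected in all 3 HBC libraries, the 3 on each side of the minimum, examples of overlaps and copies, and from each list the top 2 and bottom 2 by change with 8 set genes. Receptors named outside this rule are described as chosen after their values were seen, as are Olfr603, Olfr596 and Olfr530, and the Taar and Tas2r examples. Alternatives were other minimums, scalings, pseudocounts and filters, and leaving out each HBC library.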

Additional observations from a re-analysis of the deposited data

How the results depend on the processing

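The receptor counts moved little with a lower minimum and fell with higher ones. A lower minimum could add few genes. Values above 0 and under 1 FPKM numbered 10 in the RBC library and 5, 3 and 4 in HBC libraries 1, 2 and 3. At a minimum of 0.5 FPKM they were 505 in the RBC library, 21, 20 and 16 in HBC libraries 1, 2 and 3, 35 in any HBC library and 519 in any library. At a minimum of 2 FPKM they were 335 in the RBC library, 7, 8 and 8 in the HBC libraries, 12 in any HBC library and 340 in any library. At a minimum of 5 they were 151 in the RBC library, 2, 4 and 3 in the HBC libraries, 4 in any HBC library and 154 in any library. Leaving out each HBC library gave 24 to 29 genes detected in any HBC library and 508 to 510 in any library. Without its highest gene the summed Olfr value was 65.0, 86.5 and 78.5 in HBC libraries 1, 2 and 3, and with depth-scaled values it was 179 in HBC library 1. At a minimum of 2, an alternative chosen after seeing the data, Vmn2r gave 3 genes in HBC library 3, Tas1r 1 in HBC library 2, Tas2r 4 in the RBC library, and Ms4a 0, 1 and 1 in the HBC libraries. With library medians set equal 2 trafficking genes were called lower. Over all genes, quantile normalization gave 3049 called higher and 3586 lower, and equal medians gave 3604 lower. The median log2 change of all genes was 0.45, against -0.03 with equal medians and -0.13 with quantile normalization. Ncam1 turned to -0.73 under quantile normalization and Plxna1 to -0.15 with equal medians, and the cause was not tested. Leaving out each HBC library gave 4950 to 5030 genes called higher and 1993 to 2005 lower. No paired analysis was possible, because the labels link the RBC library to no culture and replicate numbers run within each group. By wide margins set for such moves, 25 of the recomputed summary values moved and 183 did not. Those margins count 335 receptor genes in the RBC library at a minimum of 2 as unmoved from 498. The tally is therefore no measure of stability.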
